A study of Mus musculus with 6 samples.

Results

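The genes described here are the receptor, kinase, transcription factor and induced target genes of the interleukin-6 (IL-6) and STAT3 axis in mouse pancreas. They are Il6ra, Il6st, Osmr, Jak1, Jak2, Stat3, Socs3, Cish, Fgl1 and Rhou, 10 of the 18193 genes named on the arrays. They were selected on their names and roles, by a choice made with differences between genotypes in these same arrays already known, so the differences of these 10 genes are given as a description and support nothing by themselves. Every probe set, the group of short oligonucleotides that reads a transcript, was taken if the platform annotation named exactly 1 of these genes for it. This gave 25 of the 45037 probe sets tested.

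Whole pancreas was compared between 3 Rkip-1 knockout mice (KO) and 3 wild-type mice (WT), all aged 8 weeks, drawn from 1 colony on a C57BL/6 background, with no treatment named and 1 array per sample. The gene Pebp1 encodes Rkip-1, an inhibitor of Raf signalling to MEK and ERK, and the study's title asks after its part in beta cell proliferation. The sources used here do not say how the allele was made, which sex the mice were, or whether any sample pools animals. By their titles, samples within a genotype are biological replicates. Values are log2 expression after RMA, and the number of arrays limits the precision.

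Most cytokines of the IL-6 family act through a shared receptor chain. IL-6 binds Il6ra, the pair recruits Il6st (gp130), and the Janus kinases Jak1 and Jak2 bound to gp130 phosphorylate the receptor and Stat3, which then enters the nucleus and switches on target genes. Socs3 is such a target and closes the loop by binding gp130 and the kinases. In the pancreas this pathway is known from injury and inflammation, when acinar cells make secreted lectins of the Reg3 group. The activity of STAT3 lies in its phosphorylation, which an mRNA measurement does not read.

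STAT proteins bind the palindrome TTCNNNGAA. It reads the same on both strands, and it was searched in the windows from 250 bases before to 50 bases after an annotated transcript start, from RefSeq sequences of build GRCm38.p6. A window was at hand for 9 of the 10 genes, all but Fgl1. The motif was in 2 of these 9 windows, against 8.30% of the 32851 windows of all genes. The same palindrome with a spacer of 4 bases was in 0 of the 9 and in 6.95% of all. Both windows of the 10 genes that hold the motif are shown, with each match in capitals. They belong to feedback inhibitors that STAT proteins are known to induce. The Socs3 window lies at chr11:117969317-117969616 on the minus strand, and its match begins 154 bases before the start. The Cish window lies at chr9:107296409-107296708 on the plus strand, and its matches begin at the start itself and 11 bases after it. As many as 2 matches or more were in 0.457% of all windows. Of further pathway genes searched the same way, Reg3b had a match 129 bases before its start. The windows of Pim1, Bcl3, Junb, Socs1, Reg3a and Reg3g had none. A match is a description of the letters and not a site of binding, and no match says only that these letters are absent from the window.
Socs3: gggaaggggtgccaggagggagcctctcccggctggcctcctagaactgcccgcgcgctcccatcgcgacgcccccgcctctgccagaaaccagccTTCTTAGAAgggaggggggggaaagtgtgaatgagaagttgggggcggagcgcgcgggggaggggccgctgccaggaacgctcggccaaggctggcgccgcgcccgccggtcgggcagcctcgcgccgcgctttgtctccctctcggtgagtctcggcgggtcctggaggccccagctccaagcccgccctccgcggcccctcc
Cish: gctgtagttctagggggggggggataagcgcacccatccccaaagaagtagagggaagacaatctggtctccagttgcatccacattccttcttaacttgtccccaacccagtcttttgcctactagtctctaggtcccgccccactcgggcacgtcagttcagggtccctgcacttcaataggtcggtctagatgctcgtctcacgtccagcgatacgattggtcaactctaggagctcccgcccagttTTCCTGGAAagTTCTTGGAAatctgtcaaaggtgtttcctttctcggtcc

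The arrays matched their labels at the deleted gene. Log2 values of Pebp1 at its brightest probe set were 5.89, 6.50 and 5.71 in KO, against 9.81, 10.01 and 9.81 in WT. Array medians lay between 2.97 and 3.02, and the upper quartile of all values was 4.54. A level under that quartile may be mostly background, so a difference against it can be too small. Pearson correlations between arrays ran from 0.989 to 0.993. Xist, the transcript of the inactive X chromosome, was at 4.43, 9.11 and 9.79 in KO and at 4.30, 4.0 and 9.09 in WT, low in KO replicate 1 and in WT replicates 1 and 2. Samples low and high in Xist were thus split unequally between genotypes, so the genotypes may differ in their mix of sexes. Whole pancreas was marked by the digestive enzyme genes Cpa1, Ctrb1 and Cel, at 14.26 to 14.39 throughout. In such bulk tissue fewer cells of a type and less RNA per cell cannot be told apart.

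The transcription factor Stat3 and all 4 target genes, Socs3, Cish, Fgl1 and Rhou, had every KO array above every WT array at their brightest probe set, with KO minus WT differences of means from 0.36 to 1.43 on the log2 scale. No receptor or kinase probe set had all KO values above all WT values. Among the 25 probe sets, 9 had all KO values above all WT values, against 6.97% of all probe sets tested, and 2 had all KO values below, against 6.51%. By the brightest probe set, 6 of the 10 genes did not overlap between genotypes in either direction, against 14.4% of all genes.

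A probe set was called at an adjusted p under 0.05, by limma with Benjamini-Hochberg adjustment over all 45037. That rule called 1 of the 25, at Rhou, against 0.0977% of all probe sets, or 0.0733% counting those higher in KO. By brightest probe set it called 1 of 10 genes, against 0.132% of all genes. The contrast behind these counts was known when the genes were picked, so nothing is read from them. The median KO minus WT difference was 0.31 over the 10 brightest probe sets, against -0.00 over all genes by brightest probe set. Over all 25 it was 0.14, against 0.01 over all probe sets tested.

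**Figure D1:**
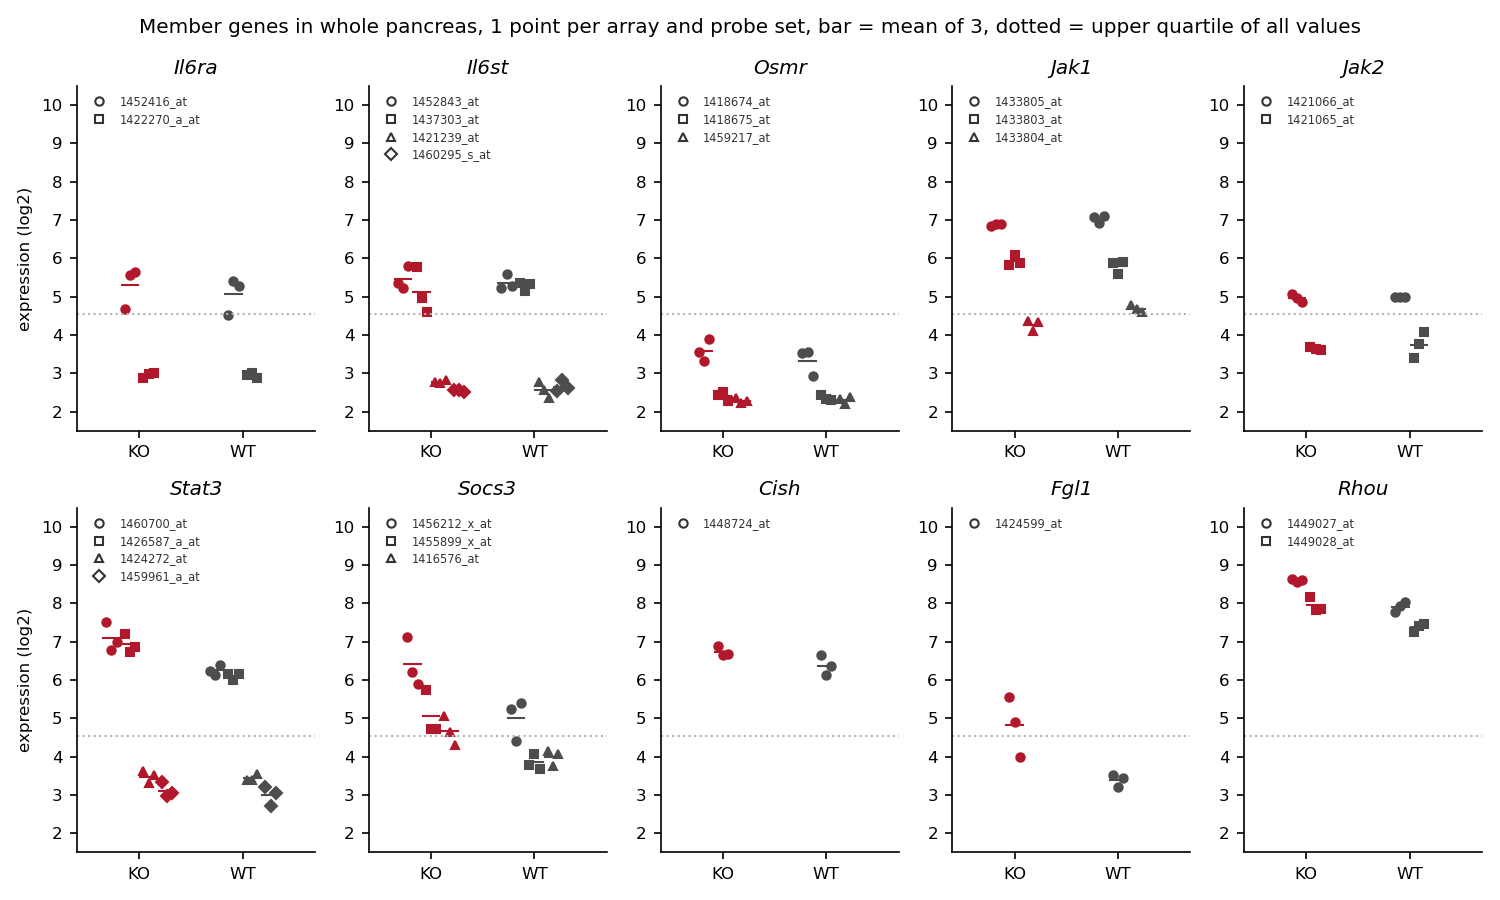
Log2 expression of the 10 genes on each array (y axis), KO in red on the left and WT in grey on the right of each panel, with 1 symbol shape per probe set and a bar at each mean of 3. The dotted line is the upper quartile of all values, 4.54. The KO points of the bright Stat3, Socs3, Fgl1 and Rhou probe sets all lie above the WT points, while those of Il6ra, Il6st, Osmr and Jak2 overlap.

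Among the receptors, Il6ra, the chain that binds IL-6 itself, had 1 probe set with arrays above the upper quartile. Probe set 1452416_at measured 4.68, 5.57 and 5.65 in KO, against 4.52, 5.41 and 5.28 in WT. Replicate 1 was the lowest array of each genotype and the groups overlapped, with a KO minus WT difference of 0.23 (95% interval -0.40 to 0.86). Its sign changed under 2 of 16 alternatives, down to -0.04. The other Il6ra probe set, 1422270_a_at, stayed between 2.89 and 3.02 on all arrays.

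Il6st, the signalling chain gp130 that most cytokines of the family share, had 2 probe sets above the quartile on every array. At 1452843_at the values were 5.35, 5.24 and 5.80 in KO, and 5.23, 5.59 and 5.28 in WT, a difference of 0.10 (-0.25 to 0.45). At 1437303_at they were 5.77, 4.98 and 4.60 in KO, and 5.37, 5.14 and 5.34 in WT, a difference of -0.16 (-0.71 to 0.38). The groups overlapped at both, and the KO mice spread over more than 1 log2 unit at 1437303_at, with replicate 1 highest. Both signs also turned with certain arrays left out, between -0.07 and 0.21 at the first and between -0.49 and 0.09 at the second. Differences of 0.22 at 1421239_at and -0.10 at 1460295_s_at came from values of 2.82 or less.

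Osmr pairs with gp130 to form the receptor for oncostatin M. Its brightest probe set, 1418674_at, read 3.56, 3.33 and 3.89 in KO, against 3.54, 3.55 and 2.92 in WT, all of them under the quartile. The other 2 Osmr probe sets lay between 2.20 and 2.52. No difference in this receptor could be read at such a signal.

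The kinases gave no single direction. Jak1 read 6.85, 6.91 and 6.89 in KO at its brightest probe set, 1433805_at, against 7.07, 6.93 and 7.11 in WT. Every KO array was below every WT array by a gap of 0.02 or more, with a difference of -0.15 (-0.35 to 0.05). Another Jak1 probe set, 1433804_at, read 4.37, 4.12 and 4.33 in KO and 4.79, 4.67 and 4.60 in WT, again lower in KO without overlap, at -0.42 (-0.64 to -0.19, adjusted p 0.276). The last, 1433803_at, ran the other way at 0.14 (-0.12 to 0.40) and overlapped, so the 3 Jak1 probe sets disagreed in sign. Jak2 measured 5.06, 4.97 and 4.86 in KO and 5.0, 4.99 and 5.0 in WT, a difference of -0.03 (-0.24 to 0.17). Its dimmer probe set differed by -0.11 (-0.44 to 0.23).

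Stat3, the transcription factor on which the axis converges, was higher on all KO arrays at both of its bright probe sets. At 1460700_at it measured 7.52, 6.77 and 6.98 in KO, against 6.23, 6.13 and 6.39 in WT. At 1426587_a_at it measured 7.20, 6.73 and 6.87 in KO, against 6.15, 6.0 and 6.16 in WT. KO replicate 1 was the highest array at both, and the lowest KO array cleared the highest WT array by 0.38 and 0.58.

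The Stat3 difference was thus 1.79-fold at the first probe set (95% interval 1.37 to 2.34) and 1.78-fold at the second (1.46 to 2.16), and neither was called, with adjusted p of 0.203 and 0.0600. The second passed the threshold after a further quantile normalization, at an adjusted p of 0.0489, and under an intensity trend with robust variance, at 0.0355, in a range from 0.0355 to 0.357 over all alternatives. The remaining Stat3 probe sets, 1424272_at and 1459961_a_at, read 3.62 or less on every array and differed by 0.04 and 0.12.

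Socs3, the inhibitor that binds gp130 and shuts the receptor down, had 3 probe sets, and every KO array stood above every WT array at each. Its brightest, 1456212_x_at, measured 7.13, 6.22 and 5.89 in KO, against 5.23, 4.41 and 5.40 in WT. The second, 1455899_x_at, measured 5.73, 4.72 and 4.73 in KO, against 3.79, 4.08 and 3.68 in WT. The last, 1416576_at, measured 5.06, 4.65 and 4.31 in KO, against 4.14, 3.75 and 4.08 in WT. The WT values of the second and the last lie under the quartile, so their folds can be too small.

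These Socs3 values gave folds of 2.64 (1.6 to 4.35), 2.31 (1.58 to 3.38) and 1.6 (1.21 to 2.12), with adjusted p of 0.255, 0.188 and 0.322. The suffix of the first 2 marks probe sets that may bind other transcripts as well, and the last, without it, gave the smallest fold. Without KO replicate 1 the differences were 1.04, 0.87 and 0.49 on the log2 scale, against 1.40, 1.21 and 0.68 with all arrays. With the Xist level as a covariate, an alternative added after seeing the data, the second differed by 1.46 and passed, its adjusted p spanning 0.0342 to 0.510 over all alternatives.

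Cish, a SOCS family protein known as a feedback inhibitor that STAT5 induces, had the smallest difference of the 4 targets. Its 1 probe set, 1448724_at, measured 6.88, 6.64 and 6.68 in KO, against 6.64, 6.12 and 6.37 in WT. The lowest KO array exceeded the highest WT array by 0.01, and the difference was 1.28-fold (1.04 to 1.58, adjusted p 0.500). Leaving out WT replicate 2 gave 0.23 on the log2 scale, against 0.36.

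Fgl1, a secreted fibrinogen-like protein that IL-6 is known to induce in liver cells, had the widest KO spread of the 25 probe sets, with an SD of 0.78. It measured 5.55, 4.90 and 4.0 in KO, against 3.51, 3.20 and 3.44 in WT. Only KO replicates 1 and 2 exceeded the upper quartile, while the WT values sat near the array medians. The 2.70-fold difference (1.67 to 4.37, adjusted p 0.222) may therefore be too small. It was 1.07 on the log2 scale without KO replicate 1, and 1.84 with an adjusted p of 0.0168 without KO replicate 3, against 1.43 with all arrays and in a range of adjusted p from 0.0168 to 0.585.

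Since Fgl1 is known from liver, hepatocyte markers were read beside it. Of 8 measured, 4 were higher and 4 lower in KO, and their mean level ran from 3.36 to 3.49 in KO and from 3.39 to 3.56 in WT. Alb, the albumin gene, measured 4.44, 3.97 and 3.95 in KO, against 3.74, 3.77 and 4.51 in WT, under the quartile throughout, and Cps1 did not exceed 2.39 on any array. The one marker above the quartile on all arrays, Ambp, differed by -0.18.

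Rhou, known as a target of Wnt and STAT3 signalling, was called at 1 of its 2 probe sets. It measured 8.64, 8.56 and 8.62 in KO at 1449027_at, against 7.78, 7.93 and 8.04 in WT. At 1449028_at it measured 8.16, 7.83 and 7.84 in KO, against 7.24, 7.42 and 7.45 in WT. The groups were apart by 0.52 and 0.39. The first probe set rose 1.62-fold (1.40 to 1.88, adjusted p 0.0404), and the second was 1.49-fold higher without passing (1.25 to 1.78, adjusted p 0.186). The adjusted p was over the threshold with any 1 of the 6 arrays left out, while the difference stayed between 0.63 and 0.76, and the call was lost too with the Xist covariate at 0.67 (adjusted p 0.143), in a range of adjusted p from 0.0134 to 0.232.

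**Figure D2:**
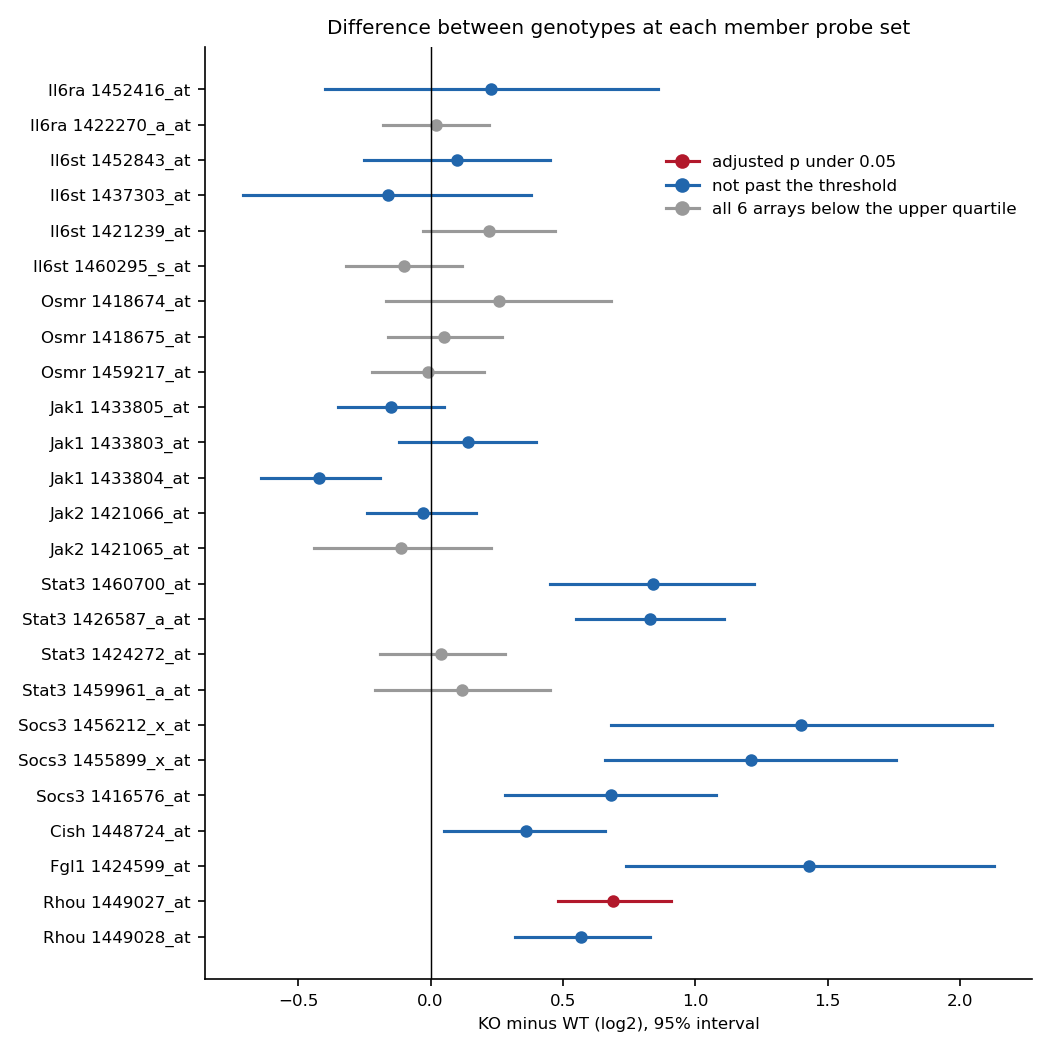
KO minus WT difference (x axis, log2) with its 95% interval for each of the 25 probe sets (rows), from receptors at the top to targets at the bottom. Red marks the Rhou probe set called at an adjusted p under 0.05, blue the others, and grey the 9 probe sets with all 6 arrays below the upper quartile. Intervals of the bright Stat3 probe sets and of every target probe set lie above 0.

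KO replicate 1 carried the highest KO value at all 9 probe sets whose groups were apart with KO above. Among the other 16 it was highest of the KO arrays at 8. Leaving it out gave differences between 0.28 at Cish and 1.07 at Fgl1, each lower, as leaving out the highest KO value must make it. The 9 were picked for groups apart with KO above. No single array left out could therefore bring a difference to 0 or below. KO replicate 1 was the KO array with low Xist and with low Adipoq, an adipocyte hormone, at 2.26, 5.73 and 5.65 in KO and 5.12, 6.99 and 6.06 in WT. With the Xist level as a covariate the 9 differences lay between 0.40 at Cish and 1.65 at Fgl1.

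**Figure D3:**
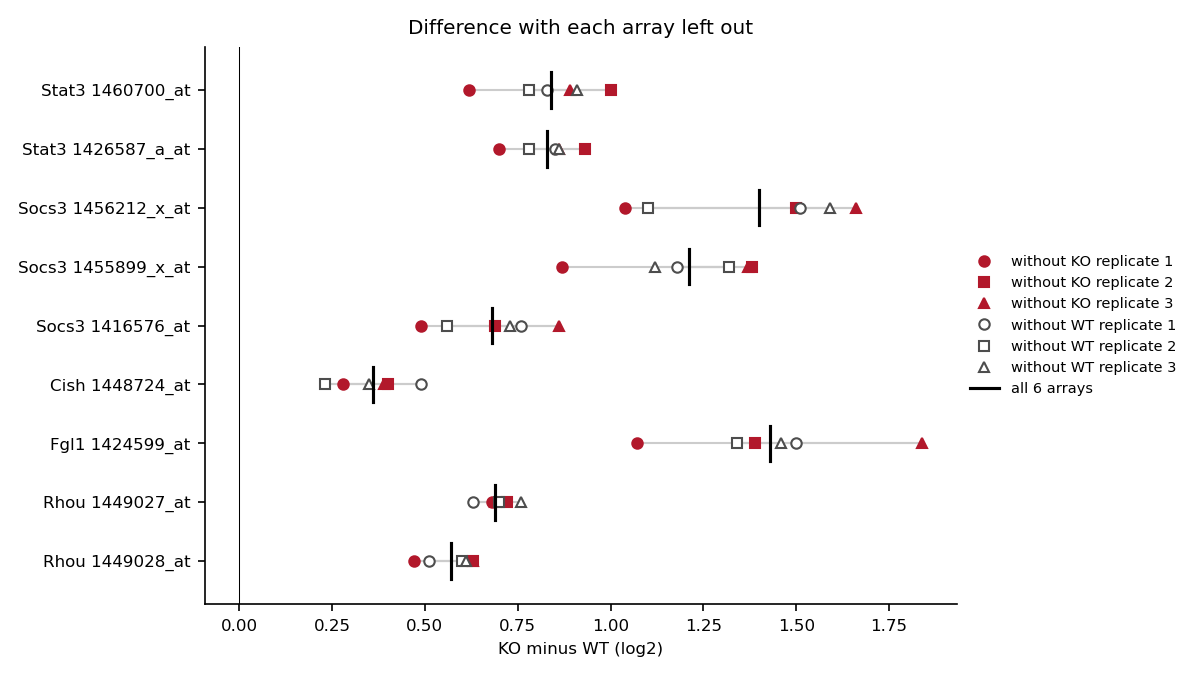
KO minus WT difference (x axis, log2) at the 9 probe sets whose KO values all exceed the WT values (rows), with all 6 arrays (black bar) and with each array left out (filled red for KO, open grey for WT). Removal of KO replicate 1, the red circle, moves Stat3, Socs3 and Fgl1 furthest down. That every symbol stays above 0 follows from how the 9 were picked.

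Markers of other cells were read on the same arrays. Of 10 immune markers measured, 4 were higher in KO, and their mean level was 3.82 to 4.23 in KO and 4.06 to 4.18 in WT, with KO replicate 1 lowest. Of 5 duct markers, 4 were higher in KO and their mean level did not overlap, at 5.23 to 5.47 in KO and 5.04 to 5.13 in WT. Muc1 differed by 0.59 (adjusted p 0.177) and Sox9 by 0.52 (adjusted p 0.389), while Krt19 was at -0.26 and Cftr at 2.28 or less on every array. Fibroblast markers were lower in KO in 5 of 5, at a mean level of 7.31 to 7.67 in KO and 7.72 to 7.99 in WT. This mean level did not overlap either, in the other direction from that of the duct markers. Col1a1 differed by -0.61 (adjusted p 0.270) and Col3a1 by -0.50 (adjusted p 0.383), while Dcn, Lum and Pdgfrb overlapped. Of 6 acinar and 5 islet markers 0 were higher in KO, and of 5 endothelial markers 2 were. The acinar genes Cpa1, Ctrb1 and Cel, at 14.26 to 14.39, lay near the highest value of 14.57, where differences can be shrunk. Ptf1a, an acinar marker below that level, differed by -0.56 (-1.07 to -0.06, adjusted p 0.519) with overlap. No marker of these lists passed the threshold, against 0.132% of all genes. Their part in the Stat3 and target values was not tested.

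Il6ra and the receptor gene Lifr shared a low replicate 1. Lifr measured 7.63, 7.92 and 8.03 in KO, and 7.62, 8.01 and 8.20 in WT. The mean level of 3 adipocyte markers was also lowest in replicate 1 of each genotype, at 4.62, 5.97 and 5.97 in KO and 5.76, 6.65 and 6.15 in WT. The part of fat tissue in the receptor values was not tested.

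Around the 10 genes, 7 further lists of the pathway held 86 genes, of which 78 were measured. Of these 4 were called, against 0.132% of all genes, all higher in KO and all among described STAT3 targets. Values of 18 of the 78 did not overlap between genotypes, against 14.4% of all genes. Their median difference was 0.03, with 45 higher and 33 lower. These lists too were chosen with earlier results of these arrays known, so nothing is read from the counts.

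The cytokines that start the signal were dim. Of 7 ligand genes measured, 5 lay below the upper quartile on all arrays and 0 were called, against 0.132% of all genes. At that share, short lists such as this and those below would rarely hold a call, so 0 called is not read as no change. Il6 read 2.21, 2.05 and 2.11 in KO and 2.03, 1.97 and 2.11 in WT. Lif and Osm differed by 0.01 and -0.04, at levels of 2.91 or less. Clcf1, a ligand of the CNTF receptor, read 4.62, 4.86 and 4.40 in KO and 4.22, 4.24 and 4.41 in WT (0.34, adjusted p 0.486).

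Receptors of related cytokines showed small differences. Lifr, which pairs with gp130 to bind LIF, differed by -0.09 (-0.44 to 0.27). Il22ra1, the receptor through which IL-22 reaches acinar cells and STAT3, measured 5.17, 5.11 and 5.11 in KO and 5.35, 5.0 and 5.16 in WT, a difference of -0.04 (-0.27 to 0.19). Il10rb, its partner chain, was at -0.12. Ghr, the growth hormone receptor that signals through Jak2 and STAT5 to Cish, measured 8.61, 8.69 and 8.53 in KO and 8.96, 8.93 and 8.62 in WT, a difference of -0.23 (-0.48 to 0.02). The lists here held 5 further receptor genes of the IL-6 family, 7 genes of IL-10 and IL-22 signalling and 4 around growth hormone. Of these 0 were called, against 0.132% of all genes.

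Of 7 other JAK and STAT genes, 0 were called, against 0.132% of all genes. Jak3, a kinase of lymphocyte cytokine receptors, read 5.36, 5.38 and 5.41 in KO and 5.11, 5.12 and 5.13 in WT, higher without overlap at 0.27 (0.09 to 0.45, adjusted p 0.389). Stat5b read 4.05, 4.09 and 3.87 in KO and 4.36, 4.29 and 4.21 in WT, lower without overlap at -0.29 (adjusted p 0.431), at a level under the quartile. Stat5a differed by 0.03, and Stat6, the transducer of IL-4, by 0.25 with overlap. Tyk2, a further kinase of gp130, was at -0.00.

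Other SOCS genes overlapped between genotypes. Socs2, an inhibitor of growth hormone signalling, read 7.45, 6.19 and 6.42 in KO and 6.63, 6.23 and 6.69 in WT, with KO replicate 1 again highest and the groups overlapping. Socs1 did not exceed 3.02, and Socs4, Socs5, Socs6 and Socs7 differed by -0.14 to 0.09. Of the PIAS proteins and phosphatases, Ptpn1, which dephosphorylates Jak2, was at 0.27 (adjusted p 0.498) and Pias4 at 0.16, both without overlap. Of the 14 genes in this list 7 were higher and 7 lower, and 0 were called, against 0.132% of all genes.

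Among 34 other described STAT3 targets the 4 called genes were Reg3a, Reg3b, Reg3g and Gadd45g. The 3 Reg3 genes rose by 6.67, 5.26 and 6.68 on the log2 scale, and Gadd45g by 1.41. With an intensity trend and robust variance all 3 Reg3 calls were lost at the same differences, with adjusted p of 0.160 for Reg3a, 0.275 for Reg3b and 0.160 for Reg3g. Reg3b also lost its call without KO replicate 2 (adjusted p 0.0760) and without WT replicate 2 (0.0782). Over all alternatives the adjusted p of the 3 genes lay between 9.59e-08 and 0.275. The Reg3 genes are close paralogs, and probes of one may bind transcripts of another. Reg3g, an antibacterial lectin, measured 12.78, 12.48 and 11.37 in KO, against 6.69, 5.07 and 4.82 in WT. Its KO arrays fell in the same order as those of Fgl1 and of Socs3 at 1456212_x_at and 1416576_at. Those of Socs3 at 1455899_x_at and of Stat3 at its bright probe sets fell in another order. Reg3a (13.03, 13.37 and 13.02 in KO) and Reg3b (13.88, 13.90 and 13.70 in KO) were highest in KO replicate 2. In WT they spread widely, at 7.90, 5.76 and 5.74 for Reg3a and 10.18, 8.20 and 7.31 for Reg3b. The Reg3b difference was 6.07 without WT replicate 1 and 4.64 without WT replicate 3. So few arrays cannot show that these genes vary together. The highest WT array of Reg3g was replicate 1, as for Fgl1, whereas Stat3 and Socs3 at their brightest probe sets were highest in WT replicate 3. Gadd45g, a stress-induced inhibitor of growth, measured 6.98, 7.50 and 6.77 in KO, against 5.72, 5.46 and 5.85 in WT, and lost its call with KO replicate 1 or with either of WT replicates 1 and 2 left out, with the Xist covariate (adjusted p 0.101) and with the replicate number as a block (0.0564), in a range of adjusted p from 0.0078 to 0.174.

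The remaining targets pointed both ways and did not pass. Mcl1, an inhibitor of apoptosis, measured 9.04, 9.05 and 9.10 in KO, against 8.51, 8.59 and 8.70 in WT, apart at 0.46 (adjusted p 0.175). Myc, a growth regulator, measured 5.96, 6.24 and 6.25 in KO, against 6.63, 6.55 and 6.75 in WT, apart in the other direction at -0.50 (adjusted p 0.227). Junb, an AP-1 subunit, read 4.44, 2.88 and 3.34 in KO and 2.64, 2.44 and 2.46 in WT, and Bcl3, a nuclear IkB protein, was at 0.57, both under the quartile. Cebpd, a transcription factor of the acute phase, differed by 0.35 without overlap (adjusted p 0.351). Pim1, a kinase that STAT3 and STAT5 induce, was at 0.02, and Lcn2, a siderophore-binding protein of inflammation, at -0.06 from levels of 2.67 or less.

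Acute phase genes, which IL-6 is known to induce in liver, did not pass the threshold. Lrg1, a secreted glycoprotein, measured 4.80, 4.82 and 4.17 in KO, against 4.16, 4.10 and 3.96 in WT, apart by a gap of 0.01 at a difference of 0.53 (adjusted p 0.402). Saa3 differed by 0.37 (adjusted p 0.516), Saa2 by 0.17 and Hp by -0.04, all with overlap and with every array below the upper quartile. Saa1, Fga, Fgb, Fgg and Lbp read at most 2.97 on every array and differed by -0.15 to 0.15. Of the 34 targets, 19 lay below the upper quartile on all 6 arrays. The list's median was 0.03, with 20 higher and 14 lower, against a median of -0.00 over all genes.

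**Figure D4:**
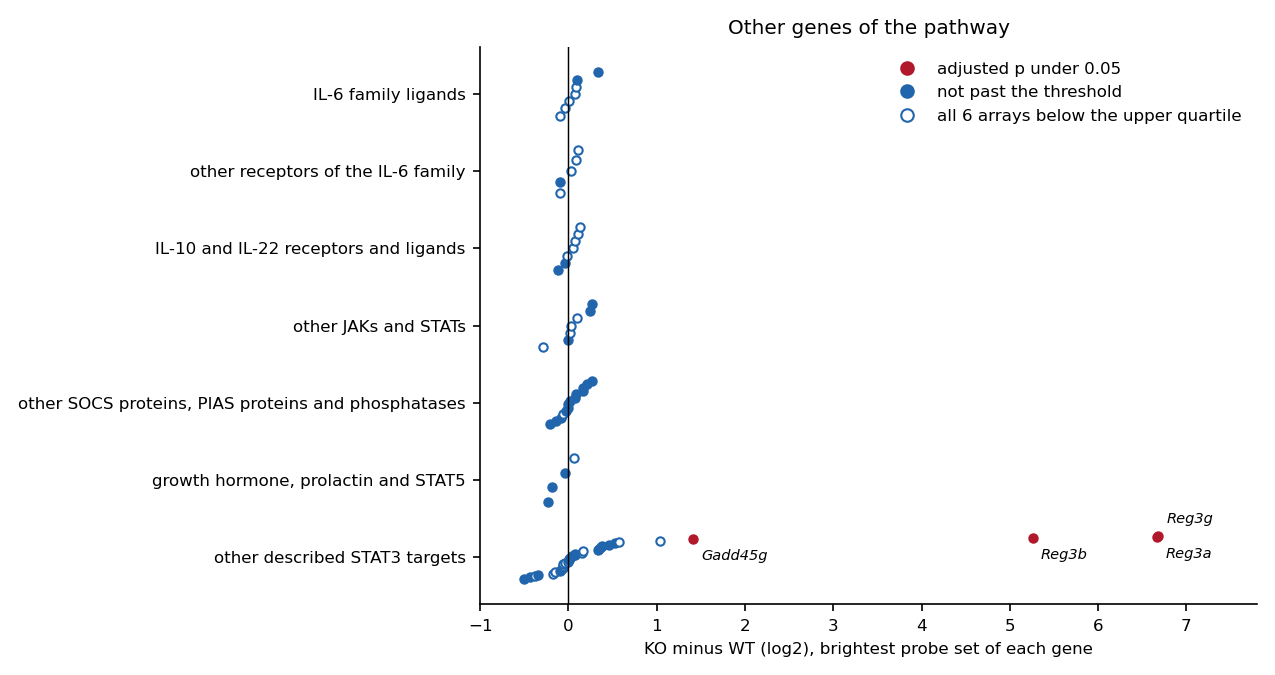
KO minus WT difference (x axis, log2) at the brightest probe set of each of the 78 further genes, 1 row of points per list. Red points were called at an adjusted p under 0.05, open points had all 6 arrays below the upper quartile. Reg3a, Reg3b, Reg3g and Gadd45g stand to the right of the rest, and the lists of ligands, receptors and kinases stay near 0.

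The genes whose values followed Stat3 most closely over the 6 arrays were Niban1 (Pearson r 0.993), Igf2bp3 (0.989) and Mindy1 (0.980), out of 7140 genes with a mean level at or above the upper quartile. Niban1, a stress-responsive regulator of translation, measured 8.24, 7.99 and 8.03 in KO, against 7.69, 7.66 and 7.76 in WT. These likenesses describe 6 arrays that share the genotype difference, with KO replicate 1 highest in each.

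RNA quality was close between genotypes. The 3' probe set of Actb exceeded its 5' probe set by 1.89 ± 0.13 in KO and by 1.89 ± 0.11 in WT (log2, SD, exact two-sided permutation p of 1.0). For Gapdh this was 0.93 ± 0.10 in KO and 0.82 ± 0.18 in WT (exact p of 0.5), where 3 against 3 arrays cannot give less than 0.1.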

How the data were processed

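RNA of whole pancreas from 3 KO and 3 WT samples was hybridised to 1 Affymetrix array each. The authors deposited log2 values per probe set, made with RMA in affy per the submitters' processing notes, with versions and settings not given in the sources used here. Scanner files are not used here, and detection calls are therefore lacking. RMA pulls dim and very bright probe sets together, which can shrink differences. KO minus WT was fitted by limma 3.58.1 (lmFit, eBayes, R 4.3.3), without covariates, two-sided, over 45037 probe sets after removal of 64 controls, with Benjamini-Hochberg adjustment and 9.53 degrees of freedom. The same fit was also run on simulated data with known changes, whose outcome is not given here. Of 45101 probe sets 34958 had 1 gene symbol, 932 several and 9211 none, and 34754 symbols were updated by Entrez identifier through RefSeq (GRCm38.p6). A gene was read at its probe set of highest mean.

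The members and lists were chosen with earlier results of these data known. Named genes were the members, Pebp1, up to 4 genes of smallest p per list, a set of pathway genes whatever their result, and the 3 genes most like Stat3. Genes of the lists outside that rule, such as Mcl1, Myc, Lrg1, Saa1 and Socs4, were named after their values were seen. Listed genes without a probe set of 1 symbol, Prlr among them, are not analysed here. The 16 alternatives covered scaling, filters, variance model, array weights, threshold, probe set choice, replicate number and each array left out, plus the Xist level as a covariate, added after seeing the data.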

Additional observations from a re-analysis of the deposited data

How the results depend on the processing

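With all arrays, 44 probe sets in all, 1 of the 25 of the 10 genes and 4 of the 78 further pathway genes were called. A second quantile normalization called 2 of the 25. An intensity trend with robust variance called 2 of the 25 and 1 pathway gene, Gadd45g, without the Reg3 genes. Averaging the probe sets of each gene called 23 genes in all and 0 of the 10. A threshold of 0.1 called 76 in all and 2 of the 25. The Xist covariate called 22 in all. With one array left out, the calls ranged from 16 to 41 in all, from 0 to 1 among the 25 and from 2 to 4 among the pathway genes. The lowest total and the 2 pathway calls came without WT replicate 2, and the 1 call among the 25 came without KO replicate 3, at Fgl1. The replicate block called 0 of the 25, with Rhou at an adjusted p of 0.101, and Gadd45g was lost there too. Same-numbered samples correlated at 0.188, -0.031 and -0.082 in their deviations from the group means, and differently numbered ones from -0.157 to 0.185. With so few samples this cannot tell whether the numbers pair them. Causes of these changes were not tested. Among the 10 genes and the pathway genes, no called difference turned its sign under the alternatives that gave it a value. With 1 array left out this was fixed in advance, since the groups of each called gene did not overlap. Values below the upper quartile, which held 9 of the 25 probe sets on all arrays, limit what can be read from Osmr and from the WT level of Fgl1.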
